A study of Mus musculus with 2 samples.

Results

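The RNA-binding protein genes Lin28a and Lin28b, the RNA-binding ubiquitin ligase gene Trim71 and 7 genes of the microRNA processing machinery (Drosha, Dgcr8, Dicer1, Tarbp2, Ago1, Ago2 and Ago3) were followed from female mouse embryonic stem (ES) cells to their differentiated descendants. The 10 genes were chosen by name, and every probe set that names 1 of them alone was taken, which gave 26 probe sets of the 34945 that name a single gene. All 10 genes were found among the 18193 genes measured. RNA came from PGK12.1 cells, an ES cell line from blastocysts of a 129 mother and a (129 X PGK)F1 father. The undifferentiated sample (day 0) was kept on a layer of feeder fibroblasts in medium with leukemia inhibitory factor; the feeders were depleted on gelatin before collection, and the other sample had differentiated for 15 days as embryoid bodies after the same depletion. Each condition was hybridised to 1 Affymetrix array, so no value below has a replicate error, there is no test between conditions, and differences are described by size. Each is a bulk sample of 1 line, in which fewer cells of a type and less RNA per cell cannot be told apart.

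MicroRNAs are cut from hairpins in long transcripts. In the nucleus the RNase III enzyme DROSHA and its RNA-binding partner DGCR8 release the hairpin, in the cytoplasm DICER1 with its partner TARBP2 removes the loop, and an Argonaute protein holds the mature strand and uses it to silence messenger RNAs. LIN28 proteins bind the precursors of the let-7 microRNAs and block their maturation, and let-7 in turn silences Lin28a, Lin28b and Trim71, so that ES cells are known for high LIN28A and TRIM71 and little mature let-7. The array measures messenger and long noncoding RNA, and no mature microRNA was measured.

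The let-7 precursors that LIN28 proteins bind were described by sequence. All 9 let-7 family mature strands of the 5′ arm in RefSeq (GRCm38.p6) share the seed GAGGUAG at bases 2 to 8, the part that pairs with target messengers, given in capitals here for 3 of them.
let-7a-5p: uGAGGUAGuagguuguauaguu
let-7g-5p: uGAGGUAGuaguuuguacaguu
miR-98-5p: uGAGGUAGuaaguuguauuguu
LIN28 zinc knuckles are known to bind the letters GGAG in the loop. GGAG was searched on the transcribed strand between the arms of each hairpin. It was held by 9 of 12 let-7 family hairpins (75%). Of other mouse hairpins with loops of the same range of length, 23 to 36 bases, 7 of 50 held it (14.0%). Of all mouse hairpins with both arms placed, the let-7 family included, 53 of 645 held it (8.22%). A contrasting pair of RefSeq hairpins is shown, with GGAG in capitals where it was found.
let-7g hairpin: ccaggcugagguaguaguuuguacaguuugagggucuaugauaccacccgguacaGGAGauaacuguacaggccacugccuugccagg
let-7b hairpin: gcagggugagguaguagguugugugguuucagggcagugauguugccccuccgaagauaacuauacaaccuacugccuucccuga
The let-7g hairpin (plus strand, chr9:106178840-106178927) lies inside the gene Wdr82 and holds GGAG 3 bases before its 3′ arm. The let-7b hairpin (plus strand, chr15:85707319-85707403) lies inside Lncppara and, like those of let-7c-2 and miR-98, has no GGAG between its arms. A match in these letters is a description and shows no binding, and a missing match shows no lack of binding.

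In their brightest probe sets Lin28a and Trim71 were lower at day 15 by more than 2-fold, and no processing gene reached 2-fold in either direction. The second Trim71 probe set ran the other way, and the second Drosha probe set was just past 2-fold lower. Signals are the deposited linear intensities, and a log2 difference is log2(signal + 16) at day 15 minus that in undifferentiated cells, which understates the change of dim genes. Counts of genes past 2-fold use this scale, while a printed fold is the ratio of the signals, so a dim gene can have a ratio over 2 and not be counted. Each gene is represented by its brightest probe set, and a gene enters counts and medians where its mean log2 value reaches the median probe set, a signal of about 36.5. Of the 9 genes above that level 2 were at least 2-fold lower and 0 at least 2-fold higher, where among all 11960 genes above it 8.41% were at least 2-fold lower and 16.5% at least 2-fold higher. With the arrays scaled on the bacterial hybridization controls instead, those background shares became 18.8% and 11.3%, and the count of members past 2-fold lower became 5, with Drosha, Dgcr8 and Tarbp2 added. Leaving out probe sets with suffix a, s or x made it 3, with Drosha added, beside 8.64% of all genes.

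Lin28a had the largest loss of the set. Its brightest probe set read 3202 before and 732.6 after differentiation, 4.37-fold lower and a log2 difference of -2.10. The second read 366.5 and 140.9, a log2 difference of -1.29, so both gave a loss past 2-fold, of unequal size. In the order of all 11960 genes from the lowest difference, Lin28a ranked 53. At day 15 the gene still read 22.9% of its undifferentiated signal, well above 35.6, the highest signal of the 15 bacterial control probe sets without target.

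Lin28b, the paralog of Lin28a, was not detected. Its single probe set read 0.3 and 10, both below those controls, so no fold or direction is given.

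Trim71, which represses messenger RNAs and is itself a conserved let-7 target, gave probe sets of opposite direction. The brighter one read 1472 before and 431.8 after differentiation, 3.41-fold lower and a log2 difference of -1.73 that ranked 137 from the lowest. The dimmer one read 109.9 and 146.1, a log2 difference of 0.36. The loss of Trim71 therefore rests on 1 probe set. Which parts of the transcript the probe sets match was not analysed here.

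The nuclear genes were lower by less than 2-fold in their brightest probe sets. Drosha read 5212 and 3031 in a probe set whose suffix s marks a match to several transcripts, 1.72-fold lower (log2 difference -0.78). A second Drosha probe set read 1508 and 731.0 (-1.03) and the dimmest read 48.6 and 19.4. All 3 were lower at day 15. Dgcr8 read 993.5 and 552.9, 1.80-fold lower (-0.83), and its next probe set read 891.4 and 514.0 (-0.78). A dim Dgcr8 probe set above the filter ran the other way, at 47.0 and 62.0 (0.31), and the last read 11.4 and 26.9, below the controls without target on both arrays.

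Of the cytoplasmic cutting step, Tarbp2 was lower in both probe sets while Dicer1 was mixed. Tarbp2 read 1171 and 665.8, 1.76-fold lower (log2 difference -0.80), and 213.6 and 120.2 in its other probe set (-0.75). The Tarbp2 probe sets thus gave nearly the same size. The brighter Dicer1 probe set read 1510 and 1091, 1.38-fold lower (-0.46), and the other read 367.2 and 523.4 (0.49). No direction can be given for Dicer1 from these arrays.

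Among the Argonautes, Ago2, the member of the family that can itself cut a target, was the only one of the 7 processing genes whose brightest probe set was higher at day 15. It read 1253 and 1855, 1.48-fold higher, a log2 difference of 0.56, in a probe set that also has the suffix s. Further Ago2 probe sets read 655.6 and 932.8 (0.50) and 471.7 and 558.1 (0.24, which scaling on the hybridization controls brings below 0), and the dimmest read 269.0 and 189.2 (-0.47). Ago2 was thus higher in 3 of 4 probe sets. Ago1 had 1 probe set, at 410.1 and 280.8, 1.46-fold lower (-0.52). Ago3 was dim throughout. Its brightest probe set read 76.0 and 50.7 (-0.46), the next 50.8 and 72.3 (0.40), and of 3 further ones 2 lay below the controls on both arrays and the other read 35.8 and 8.1. No direction can be given for Ago3.

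**Figure D1:**
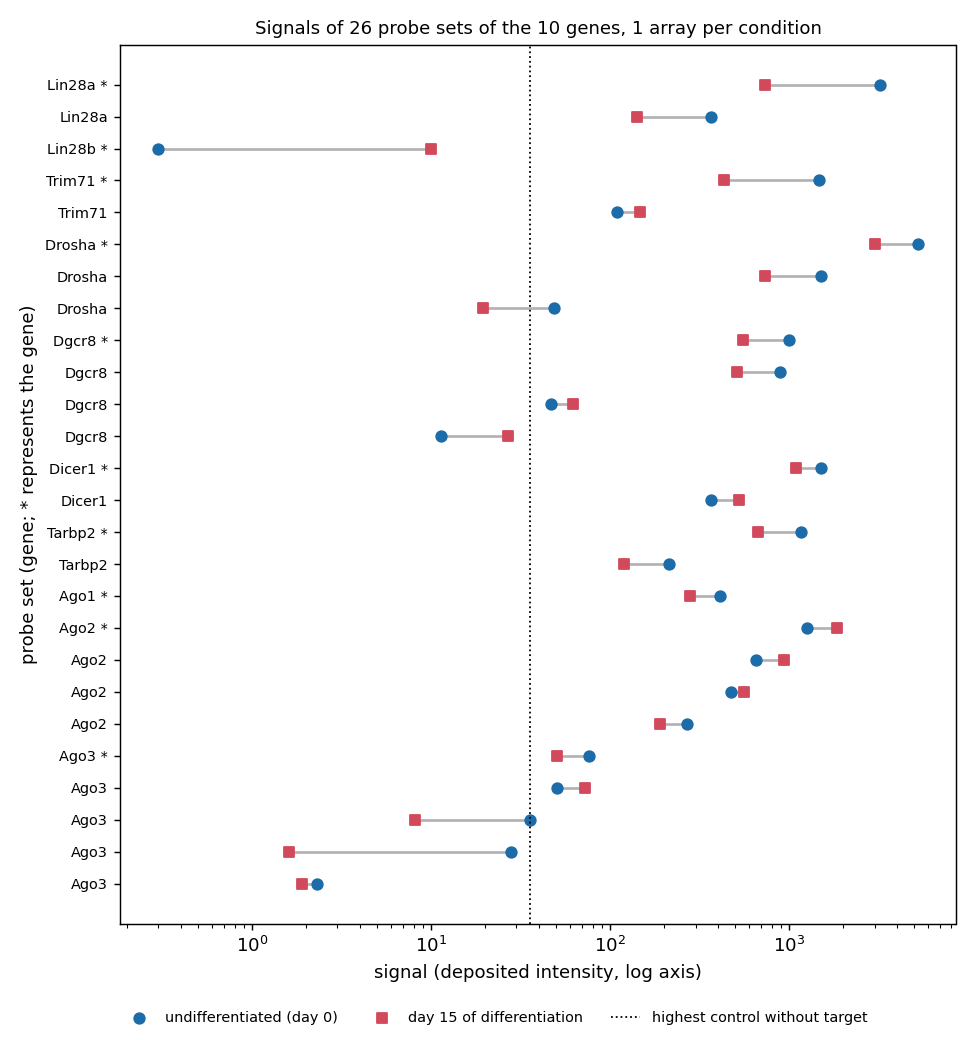
Signal (deposited intensity, log axis) of each of the 26 probe sets on the undifferentiated array (circles) and the day 15 array (squares), with an asterisk at the probe set that represents its gene and a dotted line at 35.6, the highest control without target. Lin28a and the brighter Trim71 probe set have the longest leftward lines among bright probe sets, while Lin28b lies left of the dotted line on both arrays.

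Set side by side, Lin28a and Trim71 had a median log2 difference of -1.92 and the 7 processing genes a median of -0.52, a gap of -1.40, beside 0.00052 for all 11960 genes. In order from the lowest the brightest probe sets were those of Lin28a, Trim71, Dgcr8, Tarbp2, Drosha, Ago1, Ago3, Dicer1 and Ago2. The other probe sets of Trim71 (0.36), Ago3 (0.40) and Dicer1 (0.49) would put these genes next to Ago2, so their places are not settled. The processing genes lay between -0.83 and 0.56. Of 7 such genes 6 were below 0, Dicer1 and Ago3 included, but 4 of 7 with the next brightest probe set and 4 of 6 with the mean over probe sets. The SD of the log2 difference between probe sets of 1 gene was 0.53, pooled over 5157 genes. It measures how far probe sets of a gene disagree and holds no variation between cultures. A difference between 2 genes spreads more widely than 1 probe set does. Lin28a and Trim71 lay closer together (0.37) than that SD, as did all neighbours from Dgcr8 to Dicer1 in this order. Taking the next brightest probe set of each gene ended the gap between the medians: Lin28a and Trim71 then had a median of -0.46, and the gap was 0.061. That median joins opposite values, Lin28a at -1.29 and Trim71 at 0.36. Lin28a still lay below every processing gene at that setting, the lowest being Drosha (-1.03).

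**Figure D2:**
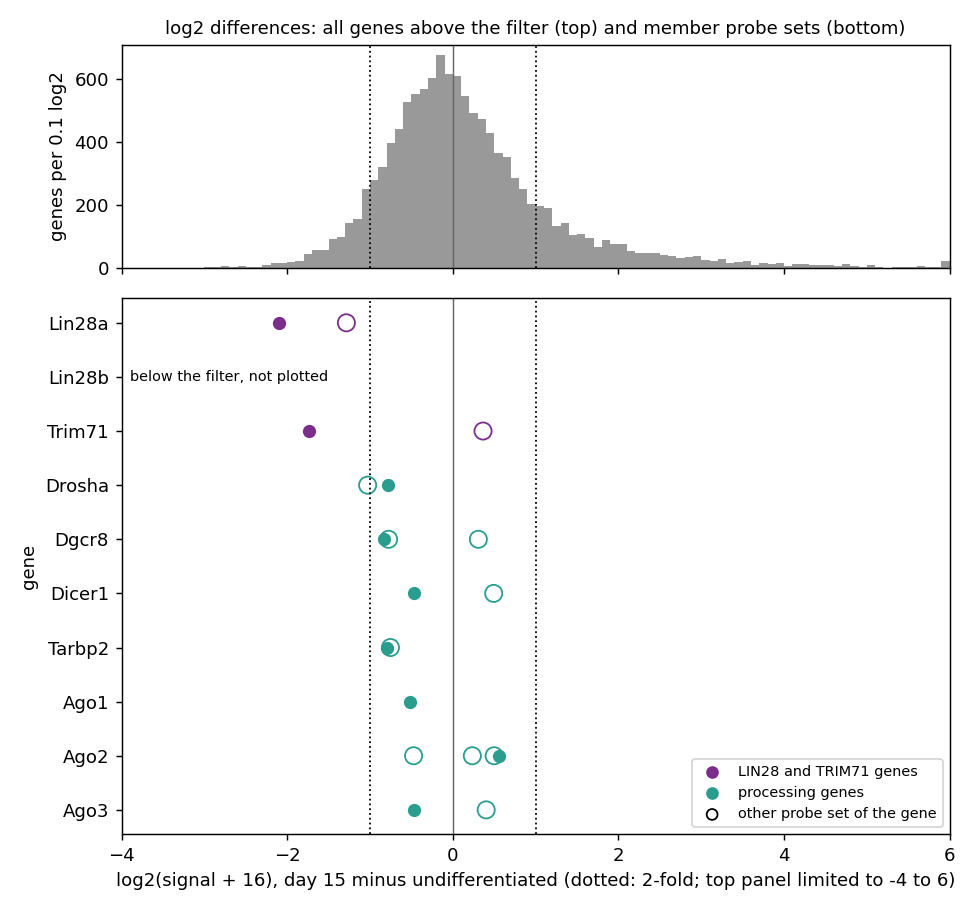
Top, number of genes per 0.1 of log2 difference for the 11960 genes above the filter, with values beyond the axis placed in the end bins. Bottom, log2 difference of every member probe set above the filter, filled for the probe set that represents the gene and open for the others, with dotted lines at 2-fold. The filled points of Lin28a (-2.10) and Trim71 (-1.73) lie left of all filled processing points, and Trim71, Dgcr8, Dicer1, Ago2 and Ago3 each have 1 open point on the other side of 0 from the filled one.

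The brightest Lin28a probe set had a larger loss than most ES cell markers, and its second did not. Of 10 such markers, 7 had lost at least 2-fold and 0 had gained as much, with a median log2 difference of -1.24, and Dppa3 (-2.73) alone was lower than the brightest probe set of Lin28a. Below the second Lin28a probe set (-1.29) lay 5 of the 10. Trim71 lay beside Utf1 (-1.71) by its brighter probe set and above all 10 by the other. Pou5f1, the gene of the core factor OCT4, read 7838 and 2932 (-1.41), and the median marker kept 42.2% of its signal. The processing genes kept a median of 66.7%. The summed signal of the ES cell list went from 46063 to 21796. Some markers of other cells were higher: 7 of 8 fibroblast markers, 4 of 5 visceral endoderm markers above the filter and 2 of 5 cardiac markers were at least 2-fold higher. Over all measured markers of each list, above the filter or not, the summed signals were 2217 and 36072, 130.7 and 2694, and 284.0 and 2049. By the ratio of signals a further cardiac marker, Myl7, was 2.14-fold higher (81.0 and 173.1). In undifferentiated cells 4 of the 8 fibroblast markers, Col1a1 among them, lay below the controls without target. So did 5 of 7 visceral endoderm markers, 1 of 5 cardiac markers and 2 of 3 leukocyte markers. The filter uses the mean of both arrays, so such markers could pass it only through day 15. Of the other lists, 3 of 6 neural markers and both leukocyte markers above the filter were at least 2-fold higher. At least 2-fold lower were 1 of 6 neural, 1 of 3 endothelial and 1 of 2 erythroid markers. By the ratio of signals the endothelial marker Kdr was 2.07-fold higher (50.8 and 105.4). Beside these marker counts, 16.5% of all genes above the filter were at least 2-fold higher and 8.41% at least 2-fold lower. The part of these shifts in cell makeup in the member values was not tested.

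The genes nearest to Lin28a in the pair of log2 values, by Euclidean distance over 2 arrays, were Eras (3191 and 731.1, distance 0.0055), a RAS family gene of ES cells, Morc1 (3226 and 719.7, 0.027), Dnmt3l (3556 and 783.9, 0.18), the cofactor of de novo DNA methylation, Epop (0.23), which binds Polycomb complex 2, and Utf1 (0.30), a chromatin factor of ES cells. Nearest to Trim71 were the kinase gene Pim2 (1462 and 435.7, distance 0.016), the folate receptor gene Folr1 (0.073), L3mbtl2 (0.075), 1700097N02Rik (0.084) and the amino acid transporter gene Slc7a7 (0.092). With 2 arrays the measure says only that signal and difference were alike.

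Few other genes of the microRNA pathway passed 2-fold. Of 24 listed genes 23 passed the filter, of which 1 was at least 2-fold lower and 1 at least 2-fold higher (4.35% each, beside 8.41% and 16.5% of all genes), with a median log2 difference of -0.03 that became -0.18 when probe sets were averaged, -0.39 when the arrays were scaled on hybridization controls, and 0.10 after quantile normalization. The gene past 2-fold higher was Tut4, the terminal uridylyltransferase that LIN28A recruits to let-7 precursors, at 568.1 and 1729, 3.04-fold higher (1.58), with 3 of 3 probe sets above the filter higher (0.51 to 1.61). With the mean over its probe sets Tut4 was at 0.97, just under 2-fold. Its relative Tut7 read 379.2 and 578.6 (0.59). Dis3l2, the exonuclease that degrades uridylated let-7 precursors, read 60.7 and 31.2 (-0.70). Its day 15 signal lay below the controls without target, and 1 of its 3 probe sets passed the filter. Srrt, which links the cap-binding complex to DROSHA, read 2553 and 1205, 2.12-fold lower (-1.07, but -0.98 with quantile normalization). The next in size were Prkra, a DICER1 partner related to TARBP2 (190.8 and 355.8, 0.85), and the helicase gene Mov10 (740.8 and 434.6, -0.75), whose probe sets had both directions. Xpo5, which exports hairpins from the nucleus, read 766.7 and 547.5 (-0.47), and the silencing scaffolds Tnrc6a, Tnrc6b and Tnrc6c read 0.47, 0.70 and 0.60 as log2 differences, with 1 Tnrc6c probe set at -1.17. Ago4 (18.5 and 17.5) lay below the controls without target.

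Genes known as let-7 targets went both ways. Of 23 listed, 18 had a probe set that names the gene alone and 17 passed the filter, of which 3 were at least 2-fold lower (17.6%, beside 8.41% of all genes) and 6 at least 2-fold higher (35.3%, beside 16.5%), with a median log2 difference of 0.36 that scaling on the hybridization controls turned to -0.02. The lower genes were Mycn, a MYC family factor (4425 and 1251, -1.81), the cell cycle phosphatase gene Cdc25a (1157 and 516.1, -1.14) and Arid3b (234.9 and 96.5, -1.16). The highest gains were of Hmga2, a chromatin protein gene with many let-7 sites (208.9 and 6177, 29.6-fold), and the cyclin gene Ccnd2 (261.2 and 5562, 21.3-fold). Each had all its probe sets above the filter higher at day 15, with log2 differences of 4.78 to 5.21 for Hmga2 and 1.48 to 4.64 for Ccnd2. Fas (26.7 and 204.5, at least 5.74-fold higher), the growth factor receptor gene Igf1r (63.2 and 260.3, 4.12-fold), the kinase gene Cdk6 (152.5 and 530.8, 3.48-fold) and the RNA-binding protein gene Igf2bp3 (718.7 and 1468, 2.04-fold) were the other 4. Fas lay below the controls without target in undifferentiated cells, so it could pass the filter and be counted only through day 15. The insulin receptor gene Insr (59.3 and 130.4) had a signal ratio of 2.20 but a log2 difference of 0.96. With a pseudocount of 1 the count of higher genes was 7, beside 17.6% of all genes. Scaling on the hybridization controls gave 5 lower and 5 higher of 17, beside 18.8% and 11.3% of all genes. Igf2bp1, a relative of Igf2bp3, read 2947 and 1713 (-0.78), lower in 4 of 4 probe sets.

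The 4 listed genes known to be repressed by TRIM71 were all above 0, 2 of them past 2-fold (50%, beside 16.5% of all genes), with a median log2 difference of 1.71 that was 0.65 with the mean over probe sets. The number past 2-fold was 4 with a pseudocount of 1 (beside 17.6% of all genes) and 1 with the mean over probe sets (beside 13.0%). The cell cycle inhibitor gene Cdkn1a read 440.4 and 5665 (12.9-fold higher) and the splicing regulator gene Mbnl1 305.3 and 1734 (5.68-fold). Only 1 of 3 Mbnl1 probe sets passed the filter. The retinoblastoma family genes Rbl1 (188.9 and 384.1, 0.97) and Rbl2 (90.2 and 181.7, 0.90) were just under the 2-fold size on the log2(signal + 16) scale. In log2 difference 1 other Rbl1 probe set was at -0.47 and the other Rbl2 probe set at 0.18.

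Transcripts that carry microRNAs could be read in part. Of 10 listed host transcripts 6 were measured and 5 passed the filter. Of these 5, 4 were at least 2-fold higher (80%, beside 16.5% of all genes) and 0 lower, with a median log2 difference of 1.11. Scaling on the hybridization controls left 2 higher, beside 11.3% of all genes. Mir22hg, the host of miR-22, read 99.0 and 679.7 (6.87-fold higher). The imprinted Meg3 (3104 and 10104, 3.26-fold) and Mirg (495.7 and 1050, 2.12-fold), neighbours in a cluster rich in microRNAs, and Mest, the host of miR-335 (3604 and 7799, 2.16-fold), followed. Of the genes that contain a let-7 family hairpin on the same strand, a search added after the data were seen, Wdr82 around let-7g read 2333 and 1140 (-1.02) in its only probe set, and Huwe1 around let-7f-2 and miR-98 read 3864 and 1933 (-0.99). Lncppara around let-7b and let-7c-2 was dim, at 42.1 and 38.6, and Spaca6 around let-7e lay below the controls without target, at 21.3 and 32.8. Mir100hg around let-7a-2 has no value here. Host messenger levels are not levels of the microRNA.

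**Figure D3:**
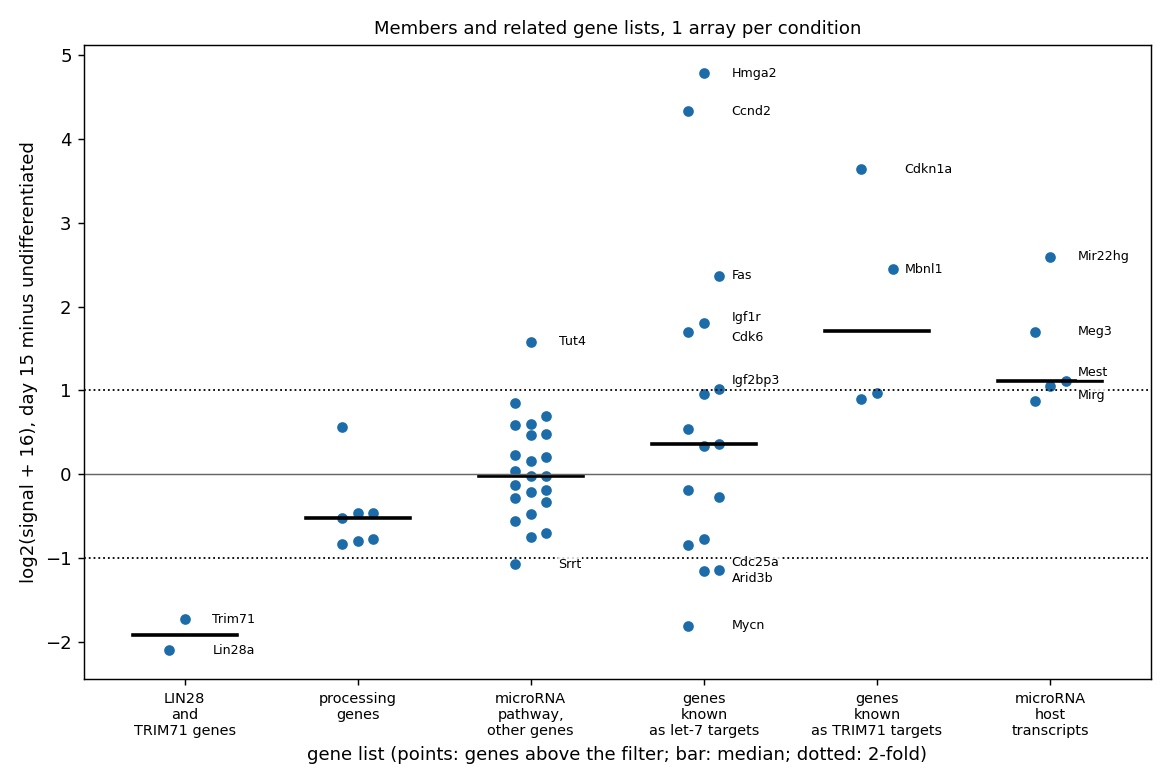
Log2 difference of each gene above the filter (points) and the median (bar) for the LIN28 and TRIM71 genes, the processing genes and 4 related lists, with dotted lines at 2-fold and names for genes past it. The processing genes lie between -0.83 and 0.56, whereas the let-7 target list runs from -1.81 (Mycn) to 4.78 (Hmga2).

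Scaling and the choice of probe set bore on the members differently. Scaling on the hybridization controls moved the median of all genes by -0.36 and quantile normalization by -0.13, and under both Lin28a (-2.48 and -2.03) and Trim71 (-2.11 and -1.77) stayed at least 2-fold lower and Ago2 above 0 (0.17 and 0.64). Lin28a stayed at least 2-fold lower under all 10 alternatives, Trim71 under 8 of 10, the exceptions being the mean over probe sets (-0.68) and the next brightest probe set (0.36). These exceptions were the only alternatives that used the dimmer Trim71 probe set. The other filters and leaving out probe sets with suffix a, s or x kept the same probe sets and could not change either value. Centring on the median of all genes hardly moved them.

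**Figure D4:**
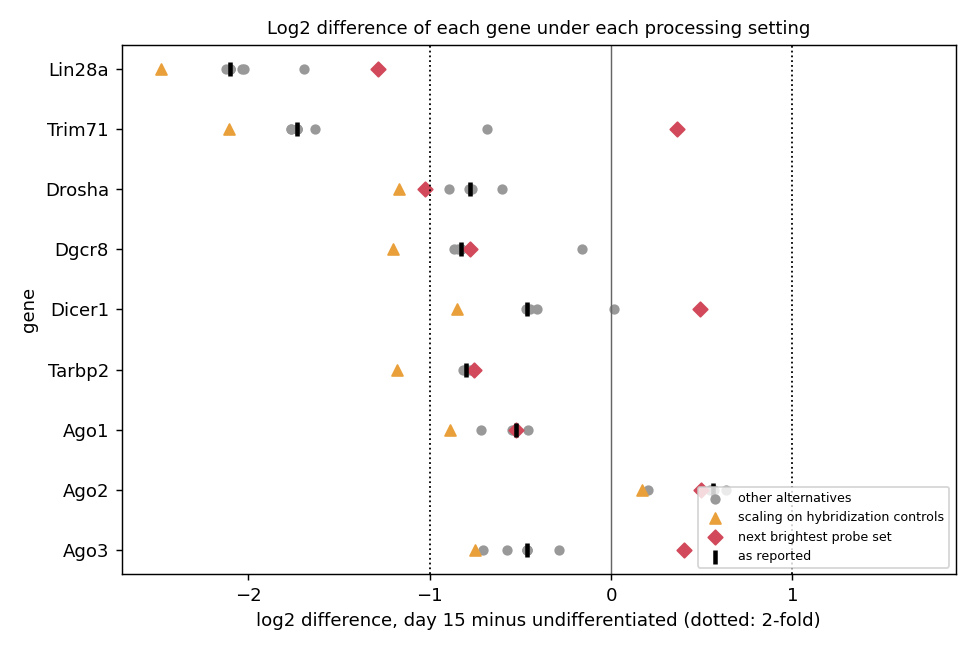
Log2 difference of each gene above the filter as reported (bars) and under each alternative, with triangles for scaling on the hybridization controls and diamonds for the next brightest probe set. The triangles lie to the left for every gene, and the diamonds of Trim71 (0.36), Dicer1 (0.49) and Ago3 (0.40) lie right of 0.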

How the data were processed

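The authors deposited linear signal intensity for 45101 probe sets on each array, and their summary software is not given in the sources used here. Without the outer 2% of each tail, both arrays averaged 250.0, so the intensity values had been scaled already. The 64 control probe sets were set aside. Gene names came from the platform annotation, with symbols updated by gene identifier through RefSeq (GRCm38.p6), and 932 naming several genes were not used. Signals were taken to log2(signal + 16). A fold is the brighter signal over the dimmer one; a dimmer signal under 35.6 was replaced by 35.6 and the fold written as a lower bound, and none is given where both were under it. Named genes were all members and, of each related list, the genes past 2-fold, or the 4 largest differences where fewer passed. Of the cell type markers only some were named, outside this rule. Tut7, Dis3l2, Xpo5, Tnrc6a to Tnrc6c, Ago4, Igf2bp1, Insr, Myl7 and Kdr were chosen after their values were seen. The members and lists were chosen with earlier results of these data known. Code (Python 3.11.15, pandas 2.3.3) was tested on simulated data. Alternatives were 2 other pseudocounts (1 and 64), 2 other filters, 3 scalings and 3 choices of probe set.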

Additional observations from a re-analysis of the deposited data

How the results depend on the processing

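With 1 array per condition no sample could be left out. No paired analysis was possible because each group holds 1 sample. Shifts are set against 0.53, the SD between probe sets of a gene. With the mean over probe sets the gap between the LIN28 and TRIM71 genes and the processing genes was -0.85. The median of Lin28a and Trim71 was then -1.19, Trim71 itself -0.68, and 1 member was at least 2-fold lower, beside 6.56% of all genes. Among the processing genes that mean put Dgcr8 at -0.16, Dicer1 at 0.015 and Ago2 at 0.21. With the next brightest probe set, chosen after seeing the data, the gap turned to 0.061 and that median was -0.46. Trim71 turned to 0.36 while Lin28a stayed lower, at -1.29. Scaling on the hybridization controls gave 5 members at least 2-fold lower, beside 18.8% of all genes. The processing median stayed between -0.89 and -0.34 over 10 alternatives, and 0 members were at least 2-fold higher in any. Ago3 could be read in 8 of them. Signals near or below 35.6 (Lin28b, Ago3, Ago4, Dis3l2) limit what can be said of those genes.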
